A study of Mus musculus with 4 samples.

Results

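The genes described here make, sense, take up, store and export cholesterol. They were followed in dendritic cells (DCs, the antigen-presenting cells that prime T cells) and in CD3+ T cells, both isolated from MC38 tumours, a mouse colon carcinoma model. Of 21959 listed genes, 32 were chosen by name, and all 32 are in the tables. The choice required at least 20 counts in any of the 4 libraries, which 31 of the 32 reached. Fdps, which makes farnesyl diphosphate, did not. It had 7 counts in treated DCs, 17 in PBS DCs, 7 in treated T cells and 0 in PBS T cells. The nearest gene inside that limit was Mylip, whose highest count in any library was 149. The members fall into 18 synthesis enzymes, 5 genes of sterol sensing and 9 genes of cholesterol handling.

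The mice carried MC38 tumours and received either X-Ray+O-IMDQ, named by the submitters as a prodrug activated by radiotherapy, or PBS, the saline vehicle. Cells were taken 72 h after the second treatment. There are 4 groups of 1 library each. X-Ray+O-IMDQ DCs (treated DCs) had 14056428 counts and PBS DCs 23797357, and X-Ray+O-IMDQ T cells (treated T cells) had 18463944 counts and PBS T cells 18649824. The labels give no X-ray dose, prodrug dose, mouse strain, sex or age, nor whether animals were pooled. Since there was no group given X-ray alone or prodrug alone, their parts cannot be told apart.

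With 1 library matched to a sample in each group, no replicate check was made, so each comparison is between libraries, and no p-value is given. Each table also holds 1 further library whose column name is of the PBS kind, which no description names and which was not used here. The PBS titles carry the number 2 while their descriptions name read file 1. For treated DCs the number in the title and that of the read file also differ. The description was followed, and every ratio rests on that choice. In bulk RNA, fewer cells of a type and less RNA per cell cannot be told apart. Ratios are of counts scaled with TMM, a method that evens out library composition, within each cell type. Their exact conditional binomial 95% intervals hold counting error only, with no spread between animals. Since amplified reads are not separate molecules, the intervals can understate even the counting error. The call higher or lower needs a 2-fold difference or more (1 on the log2 scale) and an interval that excludes 0. A library at 0 counts entered at a floor of 3 counts, so its fold is set by that floor. The 95% interval of such a gene also allows smaller folds. Levels are the deposited FPKM, reads scaled to gene length and library size, which can be compared between genes.

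Cholesterol is built from acetyl-CoA. The mevalonate arm makes isoprenoid units, which are joined into squalene, closed into the ring of lanosterol and trimmed to cholesterol in the endoplasmic reticulum. When sterol is scarce, the carrier SCAP escorts SREBP transcription factors to the Golgi, where they are cut and released to switch on the synthesis genes, and INSIG proteins hold SCAP back when sterol is plentiful. When sterol is in excess, oxysterols activate the LXR receptors, which raise the export pumps ABCA1 and ABCG1 and the ligase MYLIP, which removes lipoprotein receptors from the cell surface. Myeloid cells export sterol from engulfed material, and dividing T cells make it for new membrane.

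Promoters of the members were read from RefSeq on GRCm38.p6, an older build than the GRCm39 positions of the count tables. A window of 250 bases before to 50 after each gene start was used, and 26 of the 32 members had an entry. Motifs of 3 kinds were searched on both strands. The sterol regulatory element form TCACNCCAC, of the kind SREBP binds, was found in 1.24% of 32851 windows and in 1 member, Hmgcs1. CCAAT, the box bound by NF-Y, was found in 41.1% of 27025 genes. Among members with an entry it was found in 14 of 15 synthesis enzymes, in 4 of 5 sensing genes and in 3 of 6 handling genes. The LXR-type repeat, GGTNA and GGTCA with any 5 bases between, was found in 0.207% of windows and in 2 members, Abca1 and Srebf1. The motifs do not overlap in the windows shown. The 5 promoters below are examples. Hmgcs1, Srebf1 and Abca1 carry a rare motif, while Lss was called lower in DCs only and Msmo1 in T cells only. Other members with such calls are not shown. Capitals mark every match to the 3 motifs, in the direction of the gene.
Hmgcs1: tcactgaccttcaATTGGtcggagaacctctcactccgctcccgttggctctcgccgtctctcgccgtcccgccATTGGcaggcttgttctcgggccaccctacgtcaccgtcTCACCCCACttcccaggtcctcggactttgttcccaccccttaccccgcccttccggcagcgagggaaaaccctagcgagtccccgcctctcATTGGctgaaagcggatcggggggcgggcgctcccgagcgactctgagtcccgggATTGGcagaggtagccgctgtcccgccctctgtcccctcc
Msmo1: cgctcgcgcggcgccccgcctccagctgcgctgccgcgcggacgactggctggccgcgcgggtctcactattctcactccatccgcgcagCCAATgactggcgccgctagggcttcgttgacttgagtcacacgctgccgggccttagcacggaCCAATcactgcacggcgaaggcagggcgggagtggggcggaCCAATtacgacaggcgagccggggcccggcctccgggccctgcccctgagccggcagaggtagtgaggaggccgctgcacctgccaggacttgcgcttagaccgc
Lss: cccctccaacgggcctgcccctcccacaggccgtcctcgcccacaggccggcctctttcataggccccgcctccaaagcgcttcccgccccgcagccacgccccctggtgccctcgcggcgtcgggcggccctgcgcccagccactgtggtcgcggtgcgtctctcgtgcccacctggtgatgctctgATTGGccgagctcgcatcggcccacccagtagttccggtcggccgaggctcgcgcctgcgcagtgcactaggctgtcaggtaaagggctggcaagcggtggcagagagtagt
Srebf1: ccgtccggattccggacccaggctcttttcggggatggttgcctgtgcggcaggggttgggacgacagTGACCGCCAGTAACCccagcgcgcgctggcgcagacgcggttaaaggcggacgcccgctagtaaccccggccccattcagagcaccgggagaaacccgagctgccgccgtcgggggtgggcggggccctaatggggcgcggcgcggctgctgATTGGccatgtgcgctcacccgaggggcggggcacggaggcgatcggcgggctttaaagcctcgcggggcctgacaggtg
Abca1: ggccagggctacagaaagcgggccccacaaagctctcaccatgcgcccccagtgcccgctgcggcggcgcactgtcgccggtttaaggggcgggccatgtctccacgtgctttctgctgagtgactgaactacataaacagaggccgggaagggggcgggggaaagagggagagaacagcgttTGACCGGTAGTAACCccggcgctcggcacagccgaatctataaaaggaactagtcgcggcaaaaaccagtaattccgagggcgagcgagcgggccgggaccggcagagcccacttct
The Hmgcs1 window is chr13:119690101-119690400 on the plus strand, with the SREBP-type letters starting 137 bases before the gene start and 4 CCAAT boxes. The Msmo1 window is chr8:64733529-64733828 on the minus strand, with 3 CCAAT boxes, and the Lss window is chr10:76531355-76531654 on the plus strand, with 1. The Srebf1 window, chr11:60210422-60210721 on the minus strand, belongs to 1 of 3 listed starts of that gene, and its LXR-type letters start 182 bases upstream. In the Abca1 window, chr4:53159846-53160145 on the minus strand, they start 67 bases upstream and there is no CCAAT. These matches are descriptions of letters and show no binding.

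In DCs most synthesis enzymes were lower in the treated library, while handling genes were mixed. Of 17 enzymes that passed the filter in DCs, 12 were called lower, 1 was called higher and 4 were neither. Among all 10316 genes tested in DCs, 41.8% were called lower and 30.2% higher, so the share of enzymes called lower, 70.6%, stands beside a high background. The median log2 ratio of the enzymes was -2.47, against -0.36 for all genes tested. The 9 handling genes had a median of -0.46, with 4 called lower, 2 higher and 3 neither. After centring on the median of all genes, the enzymes lay at -2.11 and the handling genes at -0.10, and 3 of the 4 lower handling calls, Abcg1, Stard4 and Soat1, were lost. Summed over the 18 enzymes, expression was 257 CPM (counts scaled to library size with TMM) in treated DCs and 871 CPM in PBS DCs. Summed over the 9 handling genes it was 801 CPM in treated DCs and 1142 CPM in PBS DCs.

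**Figure D1:**
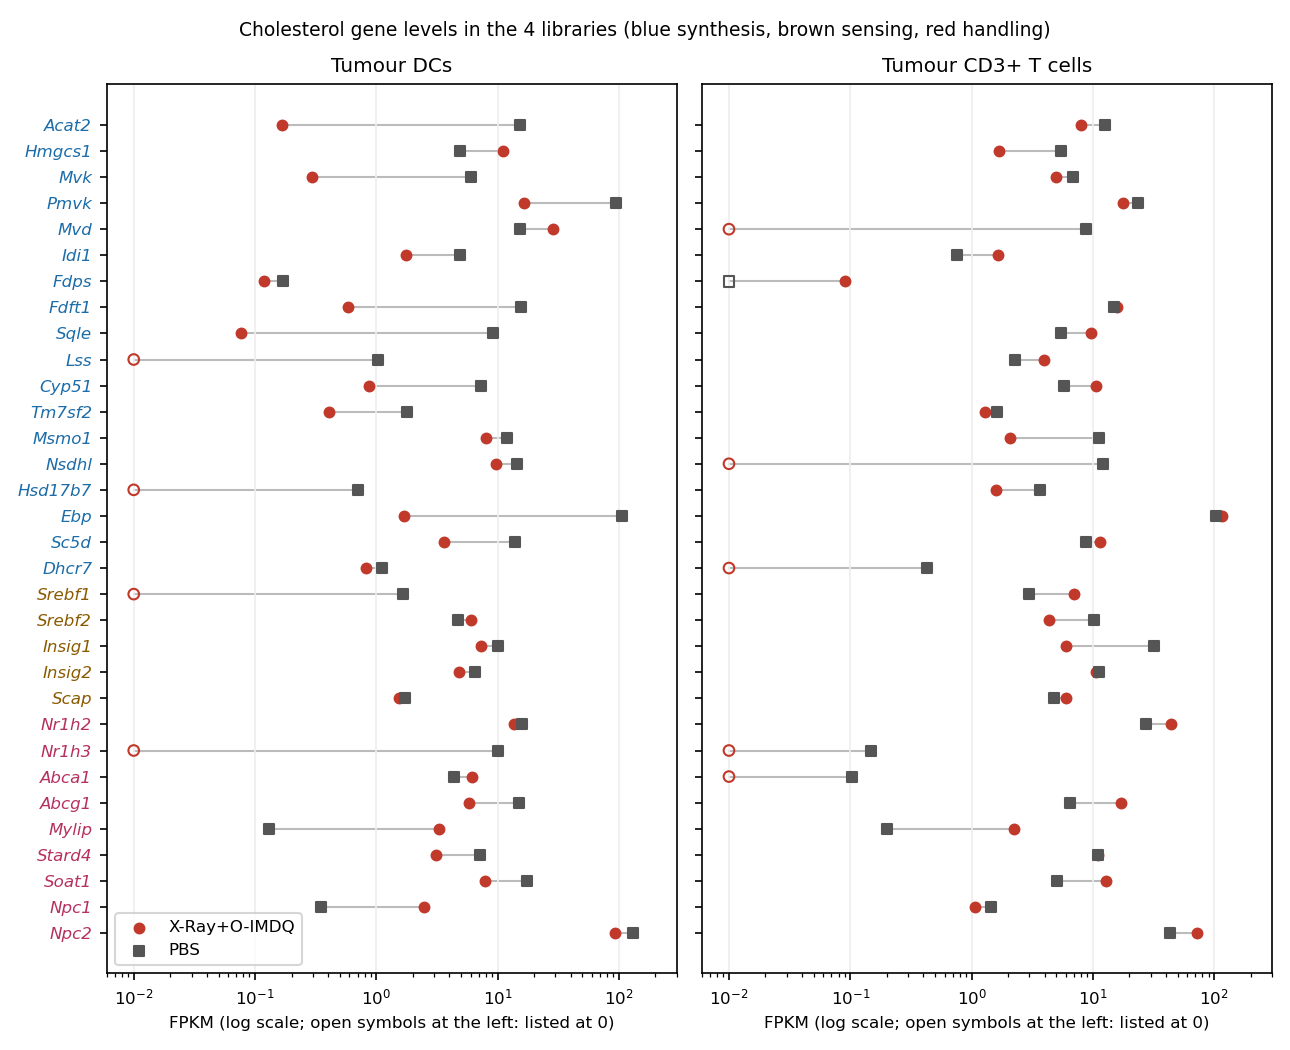
Level of each of the 32 genes as FPKM on a log axis, in DCs (left) and T cells (right). Circles are X-Ray+O-IMDQ, squares are PBS, and open symbols at the left edge mark genes listed at 0. In DCs most enzyme circles lie left of their squares, and 10 of 18 enzymes were under 1 FPKM in the treated library against 2 in the PBS library.

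The mevalonate arm was not uniform in DCs. Hmgcs1 (chromosome 13, 120151915 to 120169796 on GRCm39), the synthase that makes HMG-CoA, had 719 counts (11.1 FPKM) in treated DCs, against 539 (4.93 FPKM) in PBS DCs. It was the only enzyme called higher in DCs, 2.35-fold, and its log2 interval ran between 1.07 and 1.40. Mvd, which decarboxylates mevalonate diphosphate, had 743 counts in treated DCs, against 672 in PBS DCs, and its log2 ratio of 0.96 fell just short of a call. Acat2, the cytosolic thiolase that begins the route, had 6 counts in treated DCs, against 919 in PBS DCs. Its log2 ratio was -6.44 (95% interval -7.89 to -5.31). Mevalonate kinase Mvk had 11 counts in treated DCs, against 382 in PBS DCs, a log2 ratio of -4.30. Phosphomevalonate kinase Pmvk, the most abundant of this arm in PBS DCs, had 16.5 FPKM in treated DCs, against 95.4 FPKM in PBS DCs, and was 5.54-fold lower. Thus 3 of the 5 genes of this arm were called lower and 1 higher. Among all genes tested in DCs, 41.8% were lower and 30.2% higher.

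Between isopentenyl units and squalene epoxide, all 3 enzymes with enough counts were called lower in DCs, where 41.8% of all genes tested were lower. Idi1, the isopentenyl isomerase, had 87 counts in treated DCs, against 405 in PBS DCs, a log2 ratio of -1.40. Fdft1, squalene synthase, had 34 counts in treated DCs, against 1526 in PBS DCs, and was 25.4-fold lower. Sqle, the squalene epoxidase and a rate-limiting oxygen-dependent step, had 6 counts in treated DCs, against 1199 in PBS DCs. Its log2 ratio of -6.82 (95% interval -8.27 to -5.70) was the lowest of the enzymes among those with counts in both libraries.

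From lanosterol onward, 6 of 9 enzymes were called lower in DCs and none higher. The shares over all genes tested in DCs were 41.8% lower and 30.2% higher. Lss, which closes squalene epoxide into lanosterol, had 0 counts in treated DCs, against 267 in PBS DCs, 50.4-fold lower at the floor. Hsd17b7, a sterol ketoreductase, had 0 counts in treated DCs, against 86 in PBS DCs, 16.2-fold lower at the floor. Cyp51, the lanosterol demethylase, had 54 counts in treated DCs, against 773 in PBS DCs, and was 8.11-fold lower. Ebp, a sterol isomerase, was the enzyme with the highest level in PBS DCs. It had 1.69 FPKM in treated DCs, against 105 FPKM in PBS DCs, with counts of 55 and 5789, and was 59.7-fold lower. The desaturase Sc5d had 246 counts in treated DCs, against 1625 in PBS DCs, a log2 ratio of -1.90. The reductase Tm7sf2 had 25 counts in treated DCs, against 187 in PBS DCs, a log2 ratio of -2.08. The other 3 enzymes of this stretch were within 2-fold and were not called. Msmo1, which oxidises the methyl groups of the ring, had 692 counts in treated DCs, against 1737 in PBS DCs, a log2 ratio of -0.51. Nsdhl, which removes the carbon so oxidised, had 390 counts in treated DCs, against 986 in PBS DCs, a log2 ratio of -0.52. Dhcr7, which reduces a late double bond, had 67 counts in treated DCs, against 154 in PBS DCs, and its log2 interval of -0.82 to 0.04 includes 0.

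Sterol sensing genes stayed closer together in DCs, with 1 of 5 called lower and 4 neither, beside 41.8% lower among all genes tested. Srebf1, which encodes SREBP-1, had 0 counts in treated DCs, against 224 in PBS DCs, 42.3-fold lower at the floor. Srebf2, which encodes SREBP-2, the main activator of the synthesis genes, had 606 counts (6.001 FPKM) in treated DCs, against 799 (4.67 FPKM) in PBS DCs. Its log2 ratio was 0.42 (95% interval 0.27 to 0.57), short of a call. Insig1, which retains SCAP, had 315 counts in treated DCs, against 740 in PBS DCs, and its relative Insig2 had 233 counts in treated DCs, against 534 in PBS DCs. Their log2 ratios were -0.41 and -0.38. Scap had 160 counts in treated DCs, against 304 in PBS DCs, a log2 ratio of -0.11. After centring on all genes the sign of Scap turned.

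Among the handling genes of DCs, the LXR receptors and the export pumps went apart. Nr1h3, which encodes LXR-alpha, a receptor of macrophages and DCs, had 0 counts in treated DCs, against 606 in PBS DCs. It was 114-fold lower at the floor. Nr1h2, which encodes the widely expressed LXR-beta, had 643 counts (13.6 FPKM) in treated DCs, against 1271 (15.9 FPKM) in PBS DCs, a log2 ratio of -0.16 whose sign turned after centring on all genes. Abca1, which loads cholesterol onto apolipoproteins, had 892 counts in treated DCs, against 1084 in PBS DCs, a log2 ratio of 0.54. Abcg1, the pump that loads lipoprotein particles, had 591 counts in treated DCs, against 2622 in PBS DCs, and was 2.51-fold lower. The highest ratios of the handling genes were those of Mylip and Npc1. Mylip, the ubiquitin ligase of lipoprotein receptors, had 149 counts in treated DCs, against 10 in PBS DCs, and was 26.3-fold higher (log2 interval 3.80 to 5.81). Npc1, the membrane protein that moves cholesterol out of lysosomes, had 396 counts in treated DCs, against 94 in PBS DCs, and was 7.43-fold higher.

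Its soluble partner Npc2 was by far the most abundant handling gene in DCs, with 92.1 FPKM in treated DCs, against 132 FPKM in PBS DCs, and a log2 ratio of -0.46. Npc2 alone gave 512 of the 801 CPM summed over handling genes in treated DCs, and 703 of 1142 CPM in PBS DCs. Soat1, which esterifies cholesterol for storage, had 1074 counts in treated DCs, against 4042 in PBS DCs, a log2 ratio of -1.09. Stard4, a sterol carrier of the cytosol, had 244 counts in treated DCs, against 943 in PBS DCs, a log2 ratio of -1.13.

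Markers of DCs and of other cells also differed between the DC libraries, and their part in these values was not tested. The shares over all genes tested in DCs were 41.8% lower and 30.2% higher. Of 10 macrophage markers, all were detected in both libraries and 4 were called lower, near that share. Their sum was 1868 CPM in treated DCs and 6452 CPM in PBS DCs. Of 9 conventional DC markers, 4 were called higher and 3 lower, with a sum of 6542 CPM in treated DCs and 48851 CPM in PBS DCs, most of it from the class II gene H2-Ab1. The defining DC genes Zbtb46 and Flt3 had 57 and 69 counts in treated DCs, against 9 and 16 in PBS DCs, while Batf3 had 0 counts in treated DCs, against 479 in PBS DCs. Of 6 T cell markers in the table, 4 had enough counts to be tested, of which 2 were higher and 2 lower. The list summed to 79.2 CPM in treated DCs and 66.6 CPM in PBS DCs, and Cd3e and Cd247 were at 0 in both libraries. The other lists hold 5 markers each, not all of them tested. All 3 NK cell markers tested were higher (list sum 355 CPM in treated DCs, 96.4 CPM in PBS DCs). Of 3 neutrophil markers tested, 2 were higher and 1 lower (list sum 93.6 CPM in treated DCs, 21.7 CPM in PBS DCs). Of 4 fibroblast markers tested, 3 were higher and 1 lower (list sum 164 CPM in treated DCs, 120 CPM in PBS DCs). Ncr1, S100a9 and Pdgfra were at 0 in both libraries. Only 1 of 5 B cell markers was tested, and it was lower (list sum 12.9 CPM in treated DCs, 40.6 CPM in PBS DCs), with Ms4a1 and Pax5 at 0 in both. Likewise 1 of 5 epithelial markers was tested and was lower (list sum 0 CPM in treated DCs, 9.01 CPM in PBS DCs), with Krt8 and Krt18 at 0 in both. All 12 mitochondrially encoded genes tested were called higher in treated DCs, with a median log2 ratio of 3.21, as were 50 of 81 ribosomal protein genes. Loss of nearly all counts was common in this library. Of 7856 genes with at least 100 counts in PBS DCs, 20.6% had under 20 counts in treated DCs, and among the members the number was 6 of 28.

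In T cells the treated and PBS libraries lay closer together, and the enzymes split. Of 17 enzymes tested, 6 were called lower, 1 higher and 10 neither, with a median log2 ratio of -0.44. Among all 11058 genes tested in T cells, 25.4% were called lower and 18.3% higher, and their median was -0.07. The share of enzymes called lower was thus 35.3%. Of 8 handling genes tested, 3 were called higher, 1 lower and 4 neither, with a median of 0.68. Summed over the enzymes, expression was 631 CPM in treated T cells and 697 CPM in PBS T cells, of which Ebp alone gave 266 and 240 CPM. Over the handling genes the sum was 867 CPM in treated T cells and 511 CPM in PBS T cells, of which Npc2 alone gave 391 and 239 CPM.

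**Figure D2:**
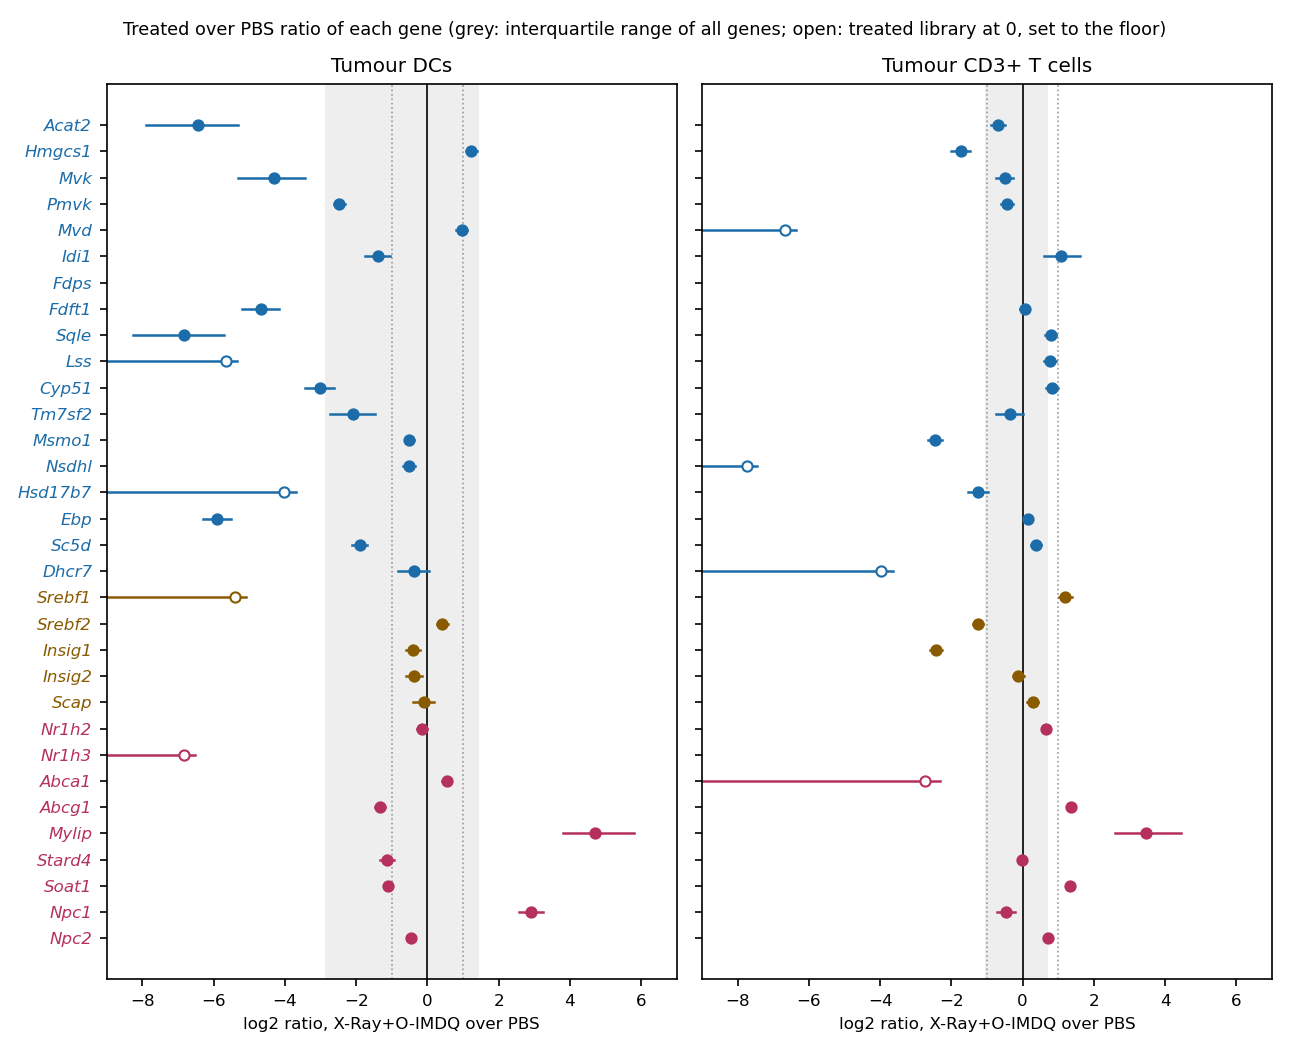
Log2 ratio of X-Ray+O-IMDQ over PBS for each tested gene, in DCs (left) and T cells (right), with exact 95% counting intervals as bars. Blue is synthesis, brown sensing and red handling, dotted lines mark 2-fold, the grey band is the interquartile range of all genes tested, and open circles mark a treated library at 0. In DCs 12 enzymes lie left of the lower dotted line, and in T cells 6 do.

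Of the 6 enzymes called lower in T cells, 2 were of the mevalonate arm and 4 were of the stretch from lanosterol onward. Hmgcs1 had 142 counts (1.67 FPKM) in treated T cells, against 471 (5.50 FPKM) in PBS T cells, and was 3.35-fold lower. Msmo1, the methyl oxidase that acts after Cyp51, had 237 counts in treated T cells, against 1289 in PBS T cells, and was 5.49-fold lower (log2 interval -2.66 to -2.26). Hsd17b7 had 149 counts in treated T cells, against 351 in PBS T cells, a log2 ratio of -1.25. The other 3 had 0 counts in treated T cells. In PBS T cells Mvd had 305 counts, Nsdhl 640 and Dhcr7 47, so they were 103-fold, 215-fold and 15.8-fold lower at the floor. Of 8606 genes with at least 100 counts in PBS T cells, 7.19% had under 20 counts in treated T cells, and among the members the number was 2 of 26.

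The other 11 enzymes lay on both sides of 0 in T cells. Idi1 had 107 counts in treated T cells, against 50 in PBS T cells, and was the only enzyme called higher, 2.12-fold, a call lost with upper-quartile scaling. Sqle had 982 counts in treated T cells, against 565 in PBS T cells, Lss had 786 counts in treated T cells, against 460 in PBS T cells, and Cyp51 had 859 counts in treated T cells, against 480 in PBS T cells. These 3 enzymes act one after the other, and their log2 ratios of 0.78, 0.76 and 0.83 were short of the 2-fold limit. Ebp was the member with the highest level in both T cell libraries, at 116 FPKM in treated T cells and 103 FPKM in PBS T cells. Fdft1 and Sc5d had log2 ratios of 0.05 and 0.37, and Fdft1 turned sign with upper-quartile scaling. Acat2, Mvk, Pmvk and Tm7sf2 had log2 ratios of -0.70, -0.50, -0.44 and -0.36 and were not called, and the intervals of Acat2, Mvk and Pmvk exclude 0.

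The sensing genes of T cells were called in both directions. Insig1 (chromosome 5, 28276361 to 28283660), which is itself a target of SREBP, had 344 counts (6.02 FPKM) in treated T cells, against 1847 (32.02 FPKM) in PBS T cells. It was 5.42-fold lower (log2 interval -2.61 to -2.27). Srebf2 (chromosome 15, 82031382 to 82089580) had 576 counts in treated T cells, against 1366 in PBS T cells, and was 2.39-fold lower. Srebf1 (chromosome 11, 60089915 to 60113407) had 729 counts in treated T cells, against 314 in PBS T cells, and was 2.30-fold higher. Insig2 and Scap had log2 ratios of -0.13 and 0.28.

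The 3 handling genes called higher in T cells were the pump Abcg1, the storage enzyme Soat1 and the ligase Mylip, and the pump Abca1 was called lower. Abcg1 (chromosome 17, 31276649 to 31336962) had 2284 counts (16.9 FPKM) in treated T cells, against 879 (6.46 FPKM) in PBS T cells, and was 2.58-fold higher. Soat1 had 2336 counts in treated T cells, against 922 in PBS T cells, and was 2.51-fold higher. Mylip had 133 counts in treated T cells, against 12 in PBS T cells, and was 10.98-fold higher (log2 interval 2.60 to 4.45). Abca1 was nearly absent from T cells, with 0 counts in treated T cells and 20 in PBS T cells, 6.73-fold lower at the floor. Nr1h3 had 0 counts in treated T cells and 7 in PBS T cells and was not tested. Nr1h2 and Npc2 had log2 ratios of 0.66 and 0.71, Npc1 had -0.47, and Stard4 had -0.02 with a sign that turned under total-count scaling and centring.

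The markers that define T cells were high in both T cell libraries. None of the 6 in the table was called in either direction, with sums of 8688 CPM in treated T cells and 9132 CPM in PBS T cells. Of 8 macrophage markers tested, 1 was higher and 3 were lower, and Mertk was at 0 in both libraries, with sums of 227 CPM in treated T cells and 187 CPM in PBS T cells. DC markers summed to 364 CPM in treated T cells and 425 CPM in PBS T cells. Of 7 tested, 2 were higher and 2 lower, with log2 ratios from -5.33 to 4.95. NK cell markers summed to 1739 CPM in treated T cells and 1976 CPM in PBS T cells, with 1 of 4 tested higher and 1 lower. Among all genes tested in T cells, 18.3% were higher and 25.4% lower. Fibroblast markers summed to 141 CPM in treated T cells and 160 CPM in PBS T cells. Of 4 tested, 2 were lower and none higher, with log2 ratios from -7.12 to 0.39. B cell markers summed to 7.40 CPM in treated T cells and 0.920 CPM in PBS T cells, and the 1 tested was higher. Neutrophil and epithelial markers were under 5 CPM in both libraries. Of 83 ribosomal protein genes tested, 1 was higher and 21 were lower in treated T cells. The part of these differences in the values of the cholesterol genes was not tested.

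Set side by side, the enzymes not called lower in treated DCs were called lower in treated T cells, a pattern noticed after the values were seen. Of the 5 enzymes not called lower in DCs, namely Hmgcs1, Mvd, Msmo1, Nsdhl and Dhcr7, all 5 were called lower in T cells. Of the 12 called lower in DCs, 1 was called lower in T cells, Hsd17b7. Among all 9388 genes tested in both cell types, 21.0% of those not lower in DCs and 22.8% of those lower in DCs were lower in T cells. Across the 17 enzymes the log2 ratios of the cell types had a Pearson correlation of -0.62 and a Spearman correlation of -0.55, against 0.004 and -0.02 across all 9388 genes. Across all 30 members they were -0.18 and -0.30, and across the 8 handling genes 0.28 and -0.17. Of the 17 enzymes, 5 enter with a ratio set by the floor of 3 counts, Lss and Hsd17b7 in DCs and Mvd, Nsdhl and Dhcr7 in T cells. Genes are not independent replicates, the enzymes of each cell type share a pair of libraries, and the 2 comparisons share no library.

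**Figure D3:**
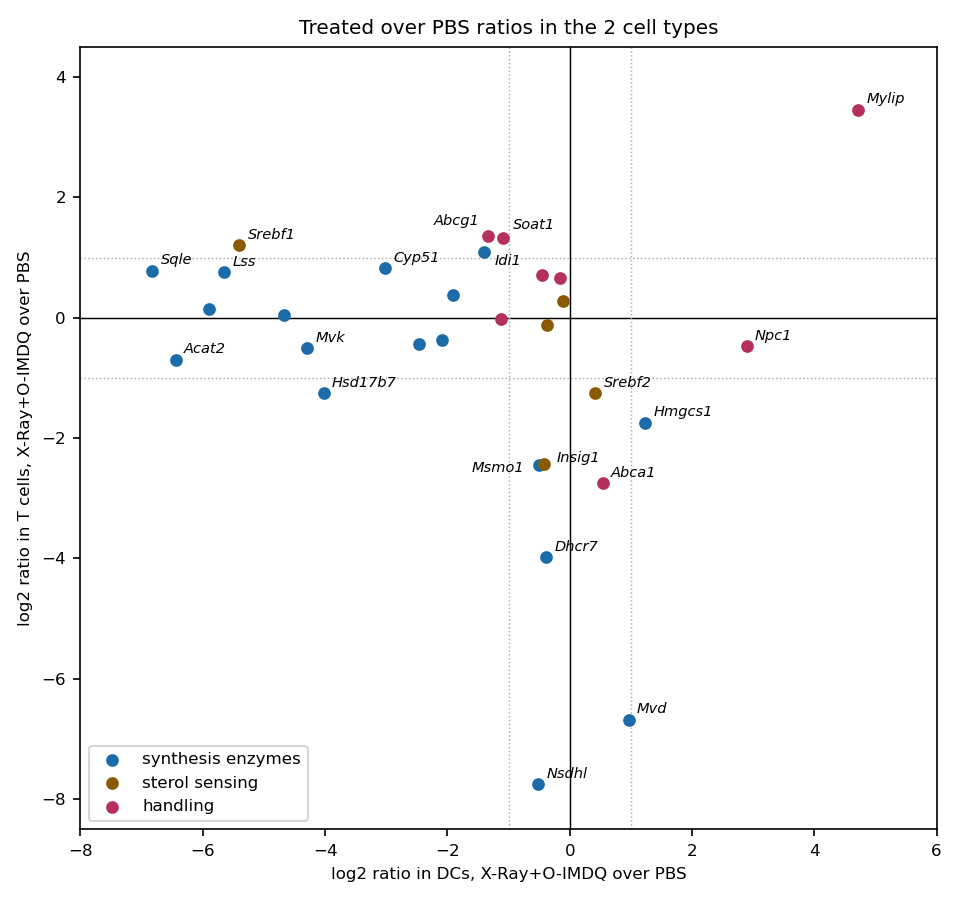
Log2 ratio of X-Ray+O-IMDQ over PBS in DCs (horizontal) against the same in T cells (vertical) for the 30 members tested in both, with dotted lines at 2-fold. Points with no name lie within 2-fold in T cells. Most enzymes (blue) lie along 2 arms, to the left near the horizontal axis or below that axis near the vertical axis. Off these arms lie Idi1, lower in DCs and higher in T cells, and Hsd17b7, lower in both. Mylip is the only member high in both.

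Some members share sequence with other genes, which counting can split or move between them. As a measure, the share of 50-base words of a gene's coding transcripts in GENCODE M21 that also stand in transcripts of other genes was taken on either strand. It was 64.1% for Fdps, 40.7% for Acat2, mostly with its neighbour Acat3, 30.7% for Fdft1, mostly with the opposite strand of Ctsb, and 28.6% for Idi1. It was 19.5% for Tm7sf2, 12.6% for Hmgcs1, 11.7% for Scap and 8.95% for Npc1, the last mostly with the opposite strand of Rmc1. No source used here says whether counting used the strand, so the values of these genes are less certain. Every other member had a smaller share. For Sqle, Mvk, Pmvk, Mvd, Msmo1, Nsdhl, Hsd17b7, Ebp and Dhcr7 it was 0%.

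Genes around the pathway were called in both directions in DCs, where 30.2% of all genes tested were higher and 41.8% lower (median log2 ratio -0.36). Of 10 fatty acid synthesis genes tested in DCs, 4 were called higher and 3 lower, with a median log2 ratio of 0.19. Acly, which makes cytosolic acetyl-CoA from citrate, had 1654 counts in treated DCs, against 561 in PBS DCs, and was 5.20-fold higher. Scd1, the stearoyl-CoA desaturase, was 4.58-fold higher and the elongase Elovl6 2.70-fold lower. Among 11 genes of SREBP processing and sterol-linked degradation, 4 were called higher and 3 lower (median log2 ratio 0.62). Mbtps1, the Golgi protease that makes the first cut in SREBP, was 3.75-fold higher and Erlin2 3.35-fold higher. Ube2g2, a ubiquitin-conjugating enzyme, had 204 counts in treated DCs, against 2382 in PBS DCs, and was 6.62-fold lower.

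Of 20 other sterol transport and storage genes in DCs, 5 were called higher, 9 lower and 6 neither, shares near those of all genes tested, 30.2% higher and 41.8% lower. Gramd1b and Osbp, which move sterol between membranes, were 11.8-fold and 8.18-fold higher. Tmem97, a sterol-linked protein that binds NPC1, had 8 counts in treated DCs, against 1715 in PBS DCs, and Stard3, a lysosomal sterol carrier, had 0 counts in treated DCs, against 781 in PBS DCs.

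In T cells, 18.3% of all genes tested were higher and 25.4% lower, and 52.5% had negative ratios. There, 9 of 10 genes of SREBP processing and degradation had positive ratios, of which 4 were called higher and 1 gene was called lower, with a median of 0.93. Mbtps2, the protease of the next cut in SREBP, was 2.61-fold higher, and Erlin2 was 2.51-fold lower. Of 13 fatty acid synthesis genes tested in T cells, 1 was higher and 6 were lower (median log2 ratio -0.06). Acss2, which makes acetyl-CoA from acetate, was 3.08-fold higher, while Scd1 and Me1 had 0 counts in treated T cells, against 133 and 106 in PBS T cells. Of 18 other sterol transport and storage genes, 4 were higher and 6 lower. Osbpl11 and Osbpl9, oxysterol-binding protein relatives, were 8.05-fold and 3.73-fold higher, Scarb2 was 15.6-fold lower, and Vldlr had 0 counts in treated T cells, against 119 in PBS T cells.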

How the data were processed

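RNA was measured in 4 libraries, 1 per group. The deposited read counts are raw counts per gene, and the FPKM values were scaled by the authors to gene length and counted reads, per the file headers. A check on the treated libraries found FPKM equal to count over length and column total within a relative 2.04e-07. The submitters' processing notes name build GRCm39, RSEM 1.2.12, HISAT2 2.0.4, R 3.3.1 and DESeq2 1.24.0, with no role for each. Each column was given its sample through the read file that the description names. The titles give the PBS samples the number 2, where the descriptions name read file 1, and the treated DC title and read file also differ in number. There are 4 further columns, of 2 libraries with names of the PBS kind that match no sample by description, which were not used here.

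Counts were scaled with TMM (edgeR 4.0.16, R 4.3.3) within each cell type. Genes with at least 20 counts in either library were tested, except 51 entries with no symbol. Intervals are exact Clopper-Pearson, computed with scipy 1.17.1. The limit set by 0 counts is 3 counts. Scaled to library size without TMM, it is 0.213 and 0.126 CPM in treated and PBS DCs. In treated and PBS T cells it is 0.162 and 0.161 CPM. Depth per library stands in the opening. The method was tested on simulated data that held counting error only, so that test does not cover spread between animals or from amplification. Alternatives were total counts, deposited FPKM, DESeq2 1.42.0 size factors, upper quartiles, centring, other count filters and thresholds, log2(CPM + 1) and means. Members and lists were chosen with earlier results of these data known. All members are named. From each other list up to 2 called genes per direction with at least 100 counts are named, except some that are not reported here, and marker genes were named after their values were seen.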

Additional observations from a re-analysis of the deposited data

Results flagged for a closer look

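Members called in opposite directions in the 2 cell types are given with the log2 ratio in DCs minus that in T cells. With 1 library per group, these differences were not tested. There were 5 among the 30 members tested in both cell types (16.7%), where 14.1% of all 9388 genes were of this kind. Hmgcs1 was higher in DCs and lower in T cells, with a difference of 2.98. Srebf1 was lower in DCs, where the treated library was at 0, and higher in T cells, with a difference of -6.61. Abcg1, Soat1 and Idi1 were lower in DCs and higher in T cells, with differences of -2.69, -2.42 and -2.48.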

How the results depend on the processing

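No call of a member turned to the opposite direction under the other scalings. Total counts, deposited FPKM and DESeq2 size factors changed no call. Upper-quartile scaling added Mvd in DCs and lost Idi1 in T cells. Centring added Mvd and lost Abcg1, Stard4 and Soat1 in DCs. The median of the DC enzymes was -2.11 after centring, -2.28 with minimum counts of 1 or 100, -1.65 with at least 20 counts in both libraries, -2.18 as log2(CPM + 1) and -2.82 as a mean. For DC handling genes it was -0.52 with total counts or FPKM, -0.41 with upper quartiles, -0.10 after centring and -0.32 as a mean. For T cell enzymes it was -1.28 as a mean and -0.16 when both libraries needed 20 counts. For T cell handling genes it was 0.59 with upper quartiles, 0.75 after centring and 0.53 as a mean. With at least 20 counts in both libraries, 10 members in place of 17 were lower in DCs, and 5 in place of 9 in T cells, since members under that count in the treated library leave. Higher calls in T cells were 10 at 1.5-fold and 1 at 4-fold, in place of 5. No paired analysis was possible because each group has 1 library. Genes under 20 counts, such as Fdps, were not tested at this depth.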

Other observations

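Genes of the non-sterol isoprenoid branch, which draws on the same precursors as cholesterol, were also read. In DCs 3 of 13 were called higher, 6 lower and 4 neither, and in T cells 4 of 14 were higher, 3 lower and 7 neither. Among all genes tested, 30.2% were higher and 41.8% lower in DCs, and 18.3% higher and 25.4% lower in T cells. The subunits of protein farnesyltransferase, the enzyme that attaches a farnesyl group to proteins such as RAS, went opposite ways in DCs. Fnta, the alpha subunit, had 1 count in treated DCs, against 2772 in PBS DCs, a log2 ratio of -10.6 (95% interval -15.9 to -8.14). Fntb, the beta subunit, had 192 counts in treated DCs, against 1 in PBS DCs, a log2 ratio of 8.40 (95% interval 5.91 to 13.7). The listed span of Fntb overlaps Rab15, Gpx2 and Churc1, and sequence shared with other genes was measured for the members only. Rce1, the protease that trims prenylated proteins, had 0 counts in treated DCs, against 1538 in PBS DCs, 291-fold lower at the floor. Pggt1b, a subunit of another protein prenylating enzyme, was 4.14-fold higher in treated DCs. In T cells Rabggta, a subunit of the Rab prenylating enzyme, was 5.76-fold higher and Icmt, the methyltransferase of prenylated proteins, 2.73-fold higher. Zmpste24, a protease of prenylated proteins, was 2.73-fold lower in treated T cells, and Pdss2, which helps make the ubiquinone tail, had 0 counts in treated T cells, against 143 in PBS T cells.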
